A study of Rattus norvegicus with 30 samples.

Results

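The 10 genes described here encode carriers that move bile salts, conjugates, drugs and lipids across the membranes of the hepatocyte. They were listed by symbol, through the array's annotation. The list was made with earlier results of these data known, and shares of all genes are set beside its counts for scale only. Of the 14217 genes named on the array, these 10 were represented by 13 probe sets, and 3 of them (Slco1a4, Slco1b2 and Slco2b1) had a second probe set. Each gene was read from its brightest probe set, and each of the 10 was bright enough to be among the 8531 genes tested. By role they comprised 5 uptake carriers, 4 canalicular efflux pumps and 1 basolateral efflux pump.

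Hepatocytes take up bile salts and organic anions from blood at the basolateral membrane, through a sodium-coupled carrier (Slc10a1, or Ntcp) and through the organic anion transporting polypeptides (the Slco genes, or Oatps). They secrete bile salts, conjugates and phospholipid into the bile canaliculus through ATP-driven pumps of the Abc family, and a further Abc pump returns conjugates to blood. Acetaminophen is a substrate of this chain after conjugation, since its glucuronide and sulfate leave the cell through such pumps.

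Transcripts were measured on 30 single-colour rat arrays, 1 for each well of male Sprague Dawley hepatocytes. The cells had been bought frozen, plated on collagen under a Matrigel overlay and treated from the third day in culture. Vehicle wells (1% DMSO), wells with 500 µM acetaminophen and wells with 5000 µM acetaminophen were each harvested at 24 h and at 48 h, which gave 6 groups of 5 arrays. Dosing solutions of acetaminophen were made up in DMSO too. How old the rats were and how many gave cells is not given in the sources used here, and all p-values rest on the spread between wells, not animals. In such cultures a smaller share of some cells and less RNA of a gene per cell cannot be told apart. Trimmed mean signals were alike on every array, so cell number and total RNA cannot be read from these values. Values are the deposited MAS5 signals, an array brightness that compares the same probe set across arrays and not one gene with another. Changes are log2 differences of group means with standard errors, from limma over all 30 arrays, with Benjamini-Hochberg adjusted p-values over all genes tested and a call at an adjusted p under 0.05.

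Of 8 hepatocyte markers 7 were named on the array, and their median signals over the 30 arrays ran from 7327 (Cyp2e1) to 71193 (Fgb). Of the markers of other liver cells, 10 reached the signal of the genes tested (469 or more). They were Epcam (median 10657) and Ggt1 (655) for cholangiocytes, Cd14 (16175), Lyz2 (7149) and Cd68 (876) for Kupffer cells and leukocytes, Vim (5495), Acta2 (845) and Col3a1 (582) for stellate cells and fibroblasts, and Eng (542) and Kdr (515) for endothelium. Markers below it included Krt7 (10.1), Krt19 (151), Lrat (39.0), Cd163 (71.1) and Pecam1 (123). RNA quality was read from control probe sets for β-actin, as the 3' signal over the 5' signal in log2 (the β-actin ratio), which was 1.78 ± 0.24 (SD, n = 5), 1.61 ± 0.33 and 1.37 ± 0.22 in vehicle, 500 µM and 5000 µM wells at 24 h. At 48 h the same ratio was 1.24 ± 0.11, 1.86 ± 0.12 and 1.21 ± 0.05. It fell into 18 lower and 12 higher arrays with a gap between 1.54 and 1.74. All 5 of the 500 µM arrays at 48 h lay above the gap, and all 5 of the 48 h vehicle arrays lay below it.

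At 5000 µM and 24 h all 5 uptake carriers fell to between 37.4% and 65.6% of vehicle, while the canalicular pumps went different ways. Abcb11, the bile salt export pump, fell with the uptake carriers, and so did Abcc3, the basolateral conjugate pump. Abcb4, the phospholipid floppase, rose slightly, and Abcc2 and Abcg2 did not pass the test. In counts, 7 of the 10 carriers were called lower and 1 higher, where 19.6% of all genes tested were called lower and 18.6% higher. The median change was -1.04 for the uptake carriers and -0.01 for the canalicular pumps, beside -0.00 over all genes tested. For 7 of the 10 genes all treated arrays lay below all vehicle arrays, which held for 12.3% of all genes.

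Among the uptake carriers, Slc10a1, the main sodium-coupled carrier of conjugated bile salts, gave signals of 8883, 9103, 9133, 9768 and 10435 in the 24 h vehicle wells and 3875, 4498, 4528, 5029.8 and 5226 at 5000 µM. The highest treated array was far below the lowest vehicle array. Its mean went from 9464 ± 635 (SD, n = 5) to 4631 ± 528, 2.05-fold lower, a log2 change of -1.04 ± 0.11 (adjusted p = 6.34e-09). Slco1a4, an Oatp that carries bile salts and neutral steroids, read 2002, 2486, 2701, 3147 and 3964 in vehicle and 829, 843, 1046, 1074 and 1551 at 5000 µM. Vehicle wells were widely spread for this gene, yet no treated array reached them. The change was -1.42 ± 0.18 (2.68-fold lower, adjusted p = 2.09e-07). Slco2b1, an Oatp for steroid sulfates, read 1849, 2272, 2379, 2386 and 2699 in vehicle and 769, 905, 964, 1082 and 1206 at 5000 µM. Again the groups did not overlap, and the change was -1.24 ± 0.13 (2.36-fold lower, adjusted p = 2.87e-09).

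The liver-restricted Slco1b2, which takes up bilirubin conjugates and many drugs, had signals of 1289, 1400.4, 1429, 1436 and 1816 in vehicle and 668, 761, 803, 940.1 and 963 at 5000 µM. Every treated array was below every vehicle array, for a change of -0.84 ± 0.10 (1.79-fold lower, adjusted p = 3.67e-08). Slco1a1, a male-predominant Oatp of rat liver, stood near the limit for testing (rank 8332 of 14217 by mean signal), with 601, 632, 651, 701 and 724 in vehicle and 395, 397, 403, 472 and 513 at 5000 µM. Its groups were also separate, with a smaller change of -0.61 ± 0.13 (1.52-fold lower, adjusted p = 0.00038). The second probe set of Slco1a4 also fell at 5000 µM and 24 h, by 1.03 ± 0.17 on the log2 scale (limma over all probe sets, adjusted p = 2.61e-05). That of Slco1b2 fell by 0.50 ± 0.17 (adjusted p = 0.0422). The second probe set of Slco2b1 was also above the limit for testing, with a geometric mean of 1122, but gave -0.13 ± 0.13 (adjusted p = 0.609). The fall of Slco2b1 therefore rests on 1 of its 2 probe sets, and the mean of both gave -0.69 (adjusted p = 1.59e-06). The plot of both probe sets shows these pairs. With the β-actin ratio as a covariate all 5 uptake genes were still called lower, from -1.31 for Slco1a4 to -0.59 for Slco1a1.

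**Figure D1:**
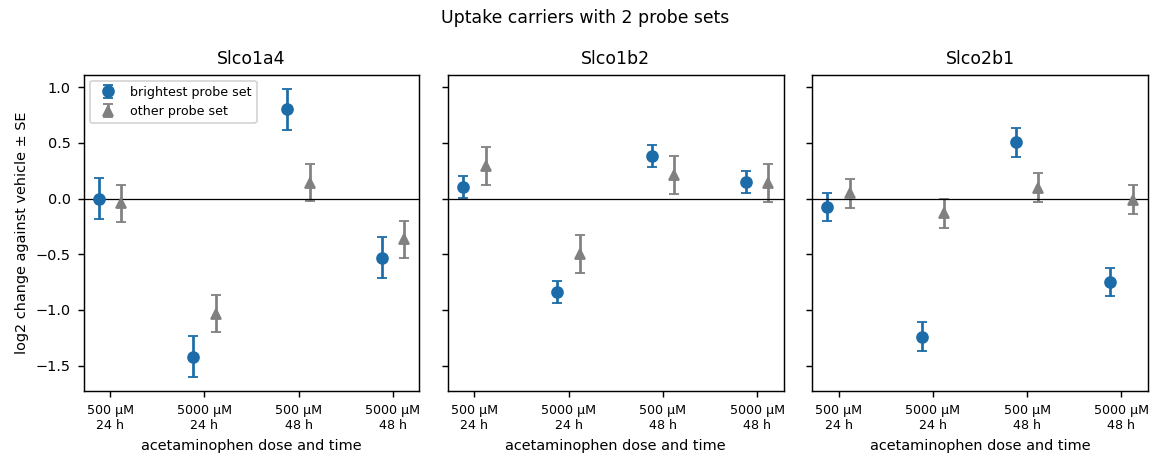
Log2 change against vehicle ± SE (n = 5 arrays per group) for the 3 uptake carriers with a second probe set, with blue circles for the brightest probe set and grey triangles for the other one, at each acetaminophen dose and time. The probe sets of Slco1a4 and Slco1b2 lie on the same side of 0 at 5000 µM and 24 h, while the second probe set of Slco2b1 stays between -0.13 and 0.10 in all 4 comparisons.

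Because all 5 uptake genes fell together, the sequences upstream of their starts are shown for 4 of them, with that of Abcc2, a pump that was not called, for comparison. The RefSeq promoter table (build GRCr8) matched 8 of the 10 genes by symbol, and Abcb11 and Abcc3 are named only. Each sequence is the 250 bases before the annotated start, read 5′ to 3′ on the gene's strand. Capitals mark matches, on either strand, to AGGTCA (the core hexamer of nuclear receptor sites), GTTAAT (the core of HNF1 sites) and TTGCNNAA (C/EBP). A further pattern, TGACNNNGC (the core of the antioxidant response element), had no match in the 8 sequences. These patterns were found in 14.1%, 6.45%, 9.22% and 10.1% of the 33469 promoter windows of this length. The sequences lie at chr6:106357945-106358194 on the minus strand, chr4:176282334-176282583 on the plus strand, chr1:252613625-252613874 on the plus strand, chr4:176681993-176682242 on the minus strand and chr4:176495847-176496096 on the minus strand.
Slc10a1: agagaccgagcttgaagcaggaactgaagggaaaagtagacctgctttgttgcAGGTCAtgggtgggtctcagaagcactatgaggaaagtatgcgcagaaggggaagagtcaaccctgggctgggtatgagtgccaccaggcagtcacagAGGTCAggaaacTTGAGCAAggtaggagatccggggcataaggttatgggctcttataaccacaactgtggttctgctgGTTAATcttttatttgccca
Slco1b2: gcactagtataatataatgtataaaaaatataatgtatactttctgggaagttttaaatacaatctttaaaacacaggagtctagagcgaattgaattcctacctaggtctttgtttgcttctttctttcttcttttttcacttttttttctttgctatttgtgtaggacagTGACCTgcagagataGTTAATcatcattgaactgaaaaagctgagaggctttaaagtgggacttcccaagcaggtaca
Abcc2: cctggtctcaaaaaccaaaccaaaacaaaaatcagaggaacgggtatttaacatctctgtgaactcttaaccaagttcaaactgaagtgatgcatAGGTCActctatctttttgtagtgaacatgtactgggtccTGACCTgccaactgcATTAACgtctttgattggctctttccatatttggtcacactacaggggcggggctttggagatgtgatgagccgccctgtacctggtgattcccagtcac
Slco1a1: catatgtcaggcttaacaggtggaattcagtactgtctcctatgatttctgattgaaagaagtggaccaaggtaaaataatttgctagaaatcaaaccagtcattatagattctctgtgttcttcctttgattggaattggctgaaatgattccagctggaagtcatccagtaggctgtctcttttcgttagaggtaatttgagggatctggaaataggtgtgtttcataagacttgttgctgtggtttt
Slco1a4: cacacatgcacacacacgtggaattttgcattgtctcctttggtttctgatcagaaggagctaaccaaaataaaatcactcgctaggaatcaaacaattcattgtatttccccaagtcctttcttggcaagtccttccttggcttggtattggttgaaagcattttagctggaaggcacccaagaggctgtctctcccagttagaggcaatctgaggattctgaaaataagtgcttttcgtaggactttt
Slc10a1 held 2 AGGTCA matches, 1 GTTAAT match that ends 15 bases before the start, and 1 C/EBP match. Slco1b2 held 1 match each to AGGTCA and GTTAAT. Abcc2 held 2 matches to AGGTCA and 1 to GTTAAT, so these letters were present upstream of a gene that fell at 5000 µM and of one that was not called. The neighbours Slco1a1 and Slco1a4 on chromosome 4 had no match, and 176 of 250 bases were identical in the alignment of their windows, against 137 or fewer in every other pair of the 8. Slco2b1 had 1 C/EBP match, and Abcb4 and Abcg2 had none. A match describes letters only, and binding was not measured.

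Among the canalicular pumps at 5000 µM and 24 h, Abcb11 read 26175, 27438, 28374, 28376 and 28699 in vehicle and 12431, 12968, 14572, 17491 and 21001 at 5000 µM. Vehicle arrays were tight, treated arrays were spread, and the groups did not overlap. The mean went from 27812 ± 1029.5 (SD, n = 5) to 15692 ± 3561, a change of -0.85 ± 0.10 (1.81-fold lower, adjusted p = 1.51e-08). The treated array with the highest Abcb11 signal was also the 1 treated array above the gap in the β-actin ratio. With that ratio as a covariate the change was -0.63, and among the arrays below the gap it was -0.94, called in both.

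Abcb4, which flips phosphatidylcholine into bile, read 4722, 4878, 4969.6, 5373 and 5545 in vehicle and 5349.8, 5677, 6002, 6521 and 7137 at 5000 µM. The upper treated arrays were above all vehicle arrays, but the groups overlapped. Its rise of 0.26 ± 0.08 (adjusted p = 0.00804) was lost after median centring of the arrays (0.20, adjusted p = 0.129) and among the arrays below the gap (0.17, adjusted p = 0.245). Abcc2, or Mrp2, exports glucuronides and glutathione conjugates into bile, and its signals of 26927 to 35072 at 5000 µM lay within a range close to that of vehicle (28880.1 to 36404). Its change was -0.12 ± 0.07, with a 95% interval of -0.26 to 0.02 (adjusted p = 0.191). Without replicate 1 of the 5000 µM group it was called at -0.18 (adjusted p = 0.041). For Abcg2, the breast cancer resistance protein that exports sulfates and urate, treated arrays ranged from 2574 to 3008 and vehicle arrays from 2483 to 2714. The change was 0.10 ± 0.07 with a 95% interval of -0.04 to 0.24 (adjusted p = 0.264).

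The basolateral pump Abcc3, or Mrp3, which returns glucuronides to blood, read 9259, 9319, 9324, 9361 and 10297 in vehicle and 4059.9, 4888, 5584, 5731 and 5806 at 5000 µM. All treated arrays were far below vehicle, and vehicle arrays were close together apart from 1 higher array. The change was -0.88 ± 0.10 (1.84-fold lower, adjusted p = 4.15e-08). Beside these falls, the summed signal of the 8 stellate and fibroblast markers was lower at 5000 µM (5306 to 7668) than in vehicle (9087 to 11612), and that of 7 of 8 Kupffer and leukocyte markers was 19641 to 22540 against 22731 to 30396. None of these markers was listed at 0, and most of each sum came from Vim and from Cd14 and Lyz2. Of the stellate and fibroblast markers tested, only Vim was called (-0.91), with Acta2 at -0.32 and Col3a1 at -0.31. Of the Kupffer and leukocyte markers tested, only Cd14 was called (-0.54), with Lyz2 at -0.07 and Cd68 at 0.18. Summed hepatocyte markers overlapped, at 298328 to 349138 against 279980 to 361412, with Cyp2e1 as the 1 of 7 called (0.79 higher on the log2 scale). The part of other cells in the changes was not tested.

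**Figure D2:**
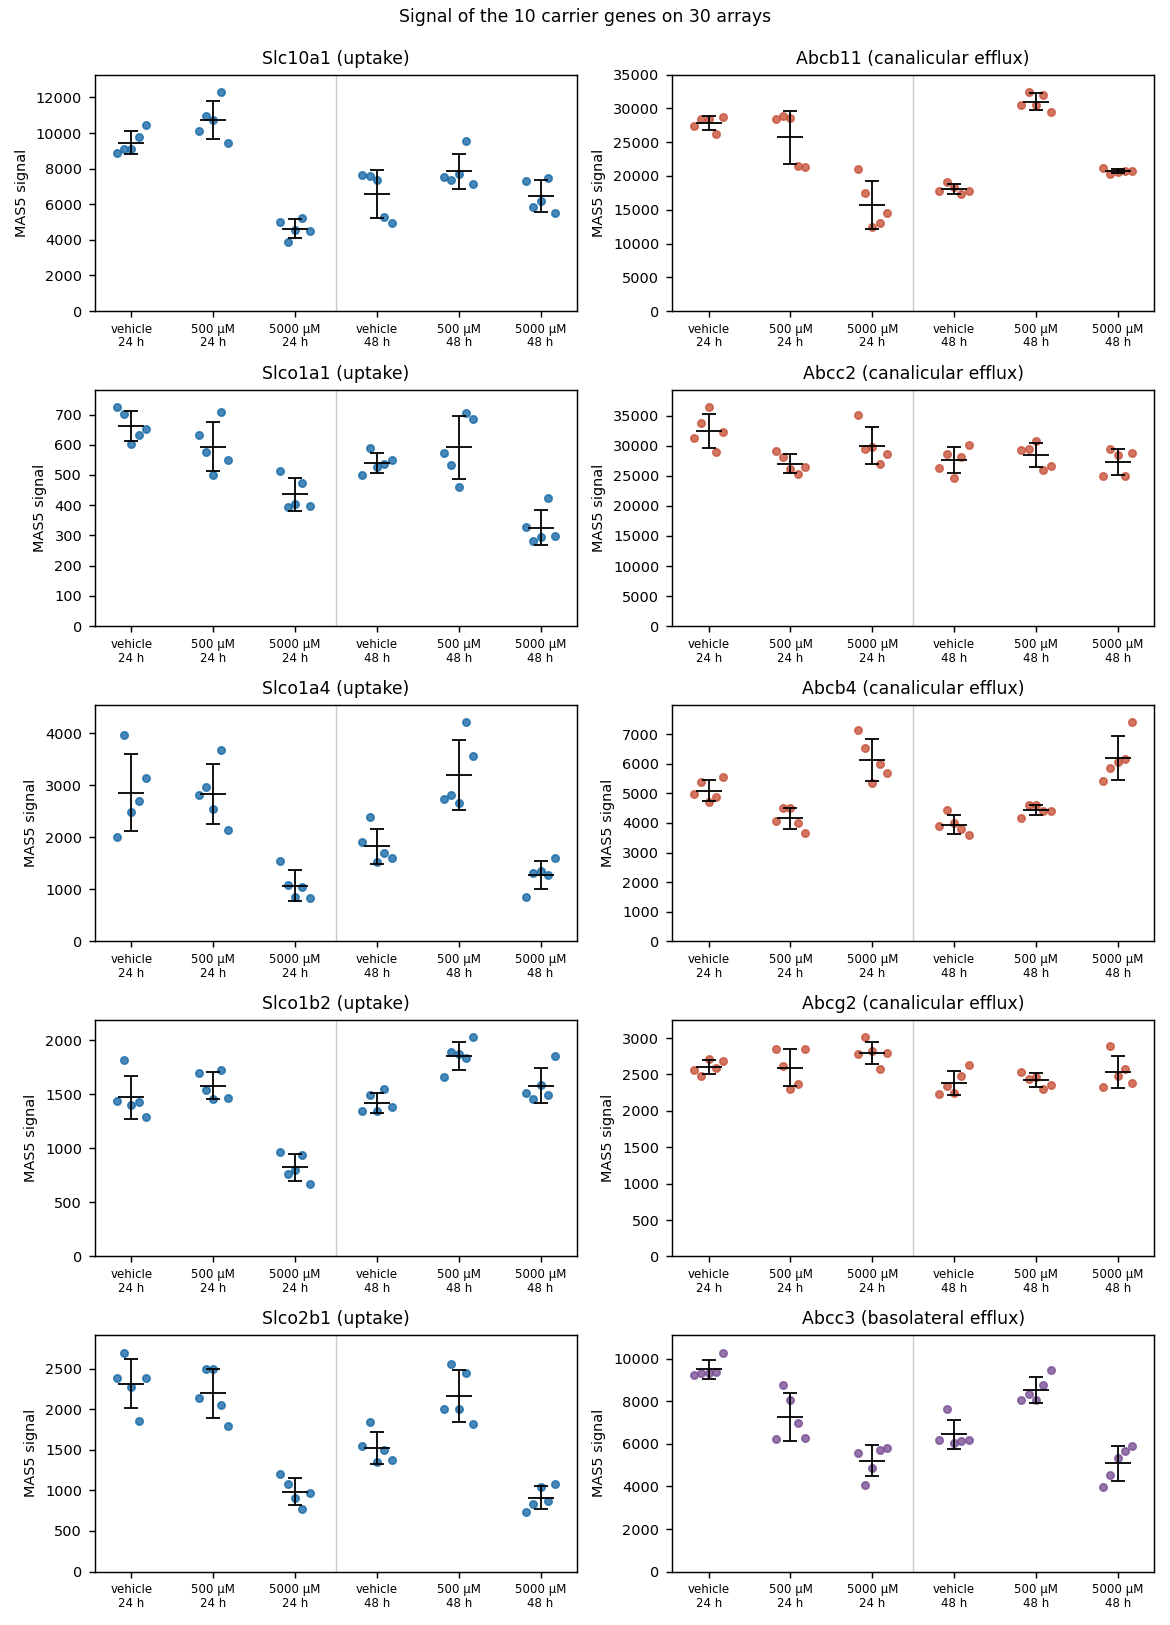
MAS5 signal (linear axis from 0) of each of the 10 carriers on all 30 arrays, with 1 panel per gene, 1 point per array, and the group mean ± SD (n = 5) as black bars for vehicle, 500 µM and 5000 µM at 24 h and 48 h. The 24 h points of the uptake genes at 5000 µM lie below vehicle, while the points of Abcc2 and Abcg2 stay within a narrow band.

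By 48 h at 5000 µM the 5 uptake carriers had divided. Slco1a1, Slco1a4 and Slco2b1 were lower than vehicle of the same time, and Slc10a1 and Slco1b2 were not called. Of the efflux pumps, Abcb4 was 1.56-fold higher than in vehicle of the same time, Abcc3 was lower, and Abcb11, Abcc2 and Abcg2 were not called. In counts, 4 carriers were called lower and 1 higher, beside 18% and 14.6% of all genes tested. The β-actin ratio was alike in these groups, with all 10 arrays below the gap. Summed stellate and fibroblast markers (6572 to 8370 against 10132 to 13388), Kupffer and leukocyte markers (20835 to 22931 against 24365 to 28432) and cholangiocyte markers (12465 to 13703 against 14224 to 15588) were lower than in vehicle, and their part was not tested. Of the Kupffer and leukocyte markers tested, only Cd14 was called (-0.28), with Lyz2 at -0.15 and Cd68 at -0.10. Most of the cholangiocyte sum came from Epcam, here (mean 12186 against 13446) and in the other groups. For Slco1a1, Slco2b1 and Abcc3 all treated arrays were below all vehicle arrays, which held for 13.6% of all genes.

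Slco1a1 read 500.1, 526, 536, 549.5 and 588 in the 48 h vehicle wells and 281, 295, 299.7, 329.6 and 424 at 5000 µM. Only the top treated array came near the vehicle range, and the groups stayed apart at a change of -0.74 ± 0.13 (1.67-fold lower, adjusted p = 3.6e-05). Slco2b1 read 1352, 1380.4, 1502, 1545 and 1843 and 735, 829.8, 875, 1040.1 and 1078. These groups were separate too, with a change of -0.75 ± 0.13 (adjusted p = 2.28e-05) from the brightest probe set. Its second probe set gave -0.01 ± 0.13 (adjusted p = 0.985), and the mean of both gave -0.38, which was still called. Slco1a4 read 1529, 1605, 1705, 1908 and 2381 and 843, 1270.1, 1304, 1353 and 1593. Here the groups overlapped, and the change of -0.53 ± 0.18 (adjusted p = 0.024) lost its call without replicate 1 of the 5000 µM group (-0.39, adjusted p = 0.106) or replicate 2 of vehicle (-0.43, adjusted p = 0.0848). Its second probe set gave -0.37 ± 0.17 (adjusted p = 0.186).

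For Slc10a1 the 48 h signals were 4970.0, 5263, 7339, 7615 and 7666 in vehicle and 5536, 5858, 6163, 7324 and 7486 at 5000 µM. The vehicle arrays themselves fell into 2 low and 3 high values, and the treated arrays lay across them. The change was -0.01 ± 0.11 with a 95% interval of -0.23 to 0.22 (adjusted p = 0.974). Slco1b2 read 1343, 1346, 1386, 1494 and 1551 and 1455, 1492, 1511, 1591 and 1860.5. These overlapped, for a change of 0.15 ± 0.10 and an interval of -0.05 to 0.35 (adjusted p = 0.267).

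Abcb4 read 3591, 3793, 3882, 3999 and 4438 in vehicle and 5414, 5865, 6070.1, 6166 and 7404 at 5000 µM and 48 h. Treated arrays were all well above vehicle, and the change of 0.65 ± 0.08 (adjusted p = 9.26e-08) was called with each array left out and under every alternative run for it. The mean of Abcb4 at 5000 µM was alike at both times (6137 at 24 h and 6184 at 48 h). Its vehicle mean went from 5098 to 3941. Abcb11 read 17398, 17722, 17739.5, 18429 and 19127 and 20366, 20648, 20674, 20768 and 21147. All treated arrays were above all vehicle arrays by a small margin, as for 11.8% of all genes, and the change of 0.20 ± 0.10 was not called (adjusted p = 0.118). It was called when only these groups entered the fit (adjusted p = 0.00184), with the ratio as a covariate (adjusted p = 0.022), with the gap as a block (adjusted p = 0.0345) and among the arrays below the gap (adjusted p = 0.0263). Abcc3 read 6066, 6126, 6193, 6204 and 7631 and 3952, 4543, 5343, 5669 and 5899. Its groups were separate but close, with a change of -0.35 ± 0.10 (adjusted p = 0.00823). Abcc2 changed by -0.01 ± 0.07 (95% interval -0.16 to 0.13) and Abcg2 by 0.09 ± 0.07 (95% interval -0.06 to 0.23), and neither was called (adjusted p = 0.91 and adjusted p = 0.382).

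**Figure D3:**
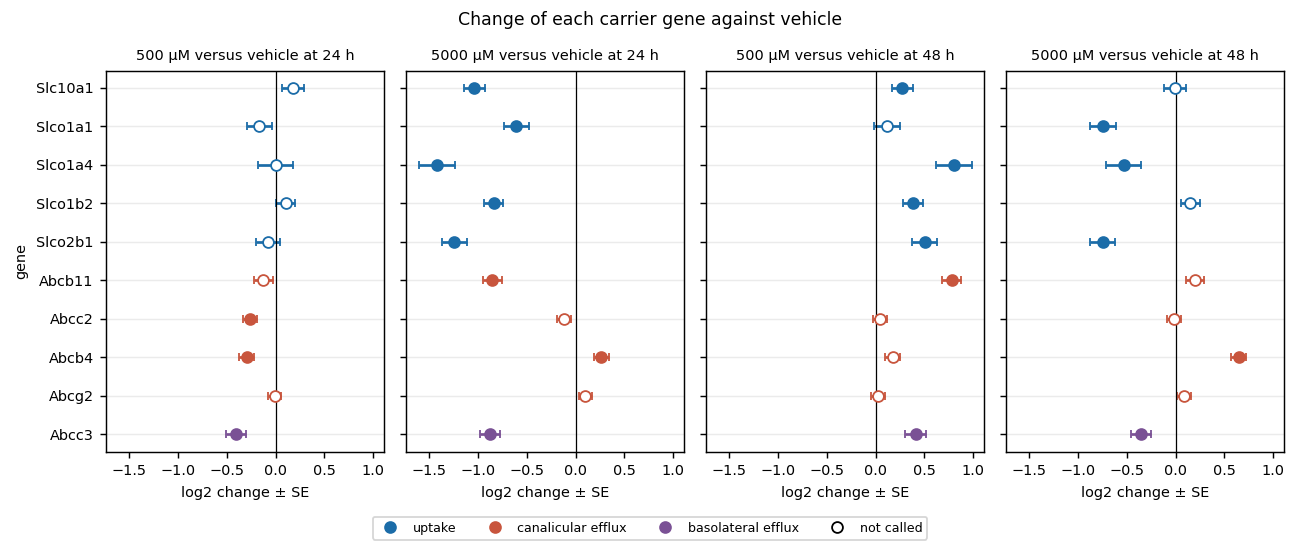
Log2 change ± SE of the 10 carriers against vehicle of the same time (n = 5 arrays per group), in 1 panel for each dose and time, with filled symbols for an adjusted p under 0.05 and open symbols otherwise. At 5000 µM and 24 h the 5 uptake genes, Abcb11 and Abcc3 lie between -1.42 and -0.61, whereas at 500 µM and 48 h all 6 filled symbols lie above 0.

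The effect of 5000 µM was set against itself at the other time by the difference of the 48 h and 24 h changes. For 6 of the 10 genes that difference was above 0 and called, and 0 were called below 0, against 7.74% and 8.66% of all genes tested. Abcb11 differed by 1.05 ± 0.13 (adjusted p = 1.85e-06), Slc10a1 by 1.03 ± 0.16 (adjusted p = 2.54e-05) and Slco1b2 by 0.99 ± 0.14 (adjusted p = 8.12e-06). For these 3 genes the change at 24 h was a fall, and the 48 h change was not called. Slco1a4 (0.89 ± 0.26, adjusted p = 0.0165), Abcc3 (0.53 ± 0.15, adjusted p = 0.0123) and Abcb4 (0.38 ± 0.11, adjusted p = 0.0163) were the others. Slco2b1 gave 0.49 ± 0.18 and missed the threshold (adjusted p = 0.0575), which it passed at 0.53 to 0.57 without replicate 4 of vehicle, 1 or 2 of 5000 µM at 24 h, or replicate 2 of vehicle or 1 of 5000 µM at 48 h. Slco1a1, called lower at both times, gave -0.14 ± 0.18 (95% interval -0.51 to 0.24, adjusted p = 0.675). Abcc2 (0.10 ± 0.10, 95% interval -0.10 to 0.31) and Abcg2 (-0.02 ± 0.10, -0.22 to 0.18) were not called. The second probe sets of Slco1a4 (0.67 ± 0.24, adjusted p = 0.105), Slco1b2 (0.64 ± 0.24, adjusted p = 0.134) and Slco2b1 (0.12 ± 0.18, adjusted p = 0.831) were not called either. With the β-actin ratio as a covariate, Slco1a4 (0.79, adjusted p = 0.0727) and Abcb4 (0.31, adjusted p = 0.0936) were no longer called. Vehicle wells themselves held lower signals of 7 of the carriers at 48 h, Abcb4 among them.

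At 500 µM and 24 h no uptake carrier was called, and 3 efflux pumps were slightly lower. In counts, 3 of 10 carriers were called lower and 0 higher, against 1.21% and 1.65% of all genes tested. Abcc3 read 6209.9, 6275, 6996, 8058 and 8782 at 500 µM, all below the vehicle arrays, for a change of -0.40 ± 0.10 (adjusted p = 0.0278). Abcb4 read 3677, 4006, 4065, 4495 and 4517, also all below vehicle, for a change of -0.30 ± 0.08 (adjusted p = 0.0313). Abcc2 read 25239, 26171, 26449, 28128 and 29095, and the top array overlapped with vehicle, for a change of -0.26 ± 0.07 (adjusted p = 0.0315). All arrays of a group lay below vehicle for 2.43% of all genes here. None of the 3 calls held after median centring, and with the ratio as a covariate only that of Abcc3 did. Leaving out 1 array gave between 0 and 3 called carriers, with 0 without replicate 2 or 5 of vehicle or replicate 4 or 5 of 500 µM, and 1 without replicate 1 of 500 µM. The summed stellate and fibroblast markers were lower at 500 µM (6655 to 8182) than in vehicle (9087 to 11612) at 24 h, and their part was not tested. Of those markers tested, Vim was called (-0.59), and Acta2 (-0.09) and Col3a1 (-0.19) were not.

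The uptake genes at 500 µM and 24 h overlapped with vehicle. Slc10a1 read 9449, 10136, 10736, 10960.0 and 12305, and Slco1a4 read 2139.8, 2539, 2817, 2974 and 3679. Slco2b1 read 1799, 2050.0, 2135, 2491 and 2502, Slco1b2 read 1461, 1471, 1539, 1695 and 1729, and Slco1a1 read 499, 551, 575, 633 and 709. These ranges lay around those of vehicle, with changes from -0.16 for Slco1a1 (95% interval -0.43 to 0.10) to 0.18 for Slc10a1 (-0.05 to 0.40). Slco1a4 gave -0.00 with the widest interval, -0.37 to 0.37. Abcg2 changed by -0.01 (-0.15 to 0.13). Abcb11 read 21385, 21483, 28428, 28555 and 28879 at 500 µM. There were 2 low arrays and 3 arrays at the vehicle level, and the 2 low ones were the 2 arrays of the group below the gap in the β-actin ratio, at 1.26 and 1.28. Such a split was not seen in vehicle, whose 2 arrays below the gap (1.49 and 1.54) held the highest and the lowest Abcb11 signals of the group, 28699 and 26175. The change at 500 µM was -0.12 ± 0.10 (95% interval -0.32 to 0.07, adjusted p = 0.514).

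At 500 µM and 48 h the called changes were rises, and 6 of 10 carriers were called higher and 0 lower, beside 24% and 18.6% of all genes. They were 4 uptake carriers, Abcb11 and Abcc3. Abcb11 read 29542, 30495, 30549, 32065 and 32428 at 500 µM, against 17398 to 19127 in vehicle. Every treated array was far above vehicle, and the mean rose from 18083 ± 694 (SD, n = 5) to 31016 ± 1199.8, 1.72-fold higher (0.78 ± 0.10, adjusted p = 5.72e-07). Slco1a4 read 2659, 2726, 2816, 3559 and 4209, all above vehicle (1529 to 2381), for a change of 0.80 ± 0.18 (adjusted p = 0.000906). Its second probe set gave 0.14 ± 0.17 and was not called (adjusted p = 0.659). All arrays lay above vehicle for 16.1% of all genes in this comparison.

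Slco1b2 read 1661, 1834, 1870.4, 1897 and 2028 at 500 µM and 48 h, all above the vehicle range of 1343 to 1551. The change was 0.38 ± 0.10 (adjusted p = 0.00242), and the second probe set gave 0.21 ± 0.17 (adjusted p = 0.486). Abcc3 read 8057, 8063, 8348, 8763 and 9466, again above all vehicle arrays, with a change of 0.41 ± 0.10 (adjusted p = 0.00223). Slco2b1 read 1820.0, 1998, 2009, 2450.0 and 2554, and the lowest of these overlapped with the highest vehicle array. Its change was 0.50 ± 0.13 (adjusted p = 0.00222), with 0.10 ± 0.13 from the second probe set (adjusted p = 0.717). Slc10a1 read 7127, 7372, 7519, 7679 and 9566 and overlapped with vehicle. It rose by 0.27 ± 0.11, close to the threshold (adjusted p = 0.0454), and lost its call without any of replicates 4 or 5 of vehicle or 1, 3 or 4 of 500 µM, at values from 0.18 to 0.29. The other 4 genes overlapped with vehicle, with signals of 459.6 to 704 for Slco1a1, 25998 to 30861 for Abcc2, 4179.7 to 4617 for Abcb4 and 2296 to 2539 for Abcg2. Slco1a1 (0.11 ± 0.13, 95% interval -0.15 to 0.38), Abcc2 (0.05 ± 0.07, -0.10 to 0.19), Abcb4 (0.17 ± 0.08, 0.01 to 0.34) and Abcg2 (0.02 ± 0.07, -0.12 to 0.16) were not called, although Abcb4 was (0.22, adjusted p = 0.0327) without replicate 2 of vehicle.

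These rises stood beside the difference in the β-actin ratio, and dose and ratio cannot be told apart within this comparison, since no array of either group lay on the other side of the gap. With the ratio as a covariate over all arrays, Abcb11 was the only carrier called (0.43, adjusted p = 0.0145). The same was so with the gap as a block (0.47, adjusted p = 0.00394). The covariate left Abcc3 at 0.39 (adjusted p = 0.143) and Slco1a4 at 0.64 (adjusted p = 0.168), beside 0.41 and 0.80 without it. It brought Slco2b1 to 0.17 (adjusted p = 0.612). Summed cholangiocyte markers (11804 to 12384 against 14224 to 15588) and stellate and fibroblast markers (7430 to 9621 against 10132 to 13388) were lower at 500 µM than in vehicle at 48 h, and their part was not tested. Of the stellate and fibroblast markers tested, Vim was called (-0.54), and Acta2 (-0.32) and Col3a1 (0.17) were not. Over all genes tested, 339 were called with the covariate and 3632 without it.

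**Figure D4:**
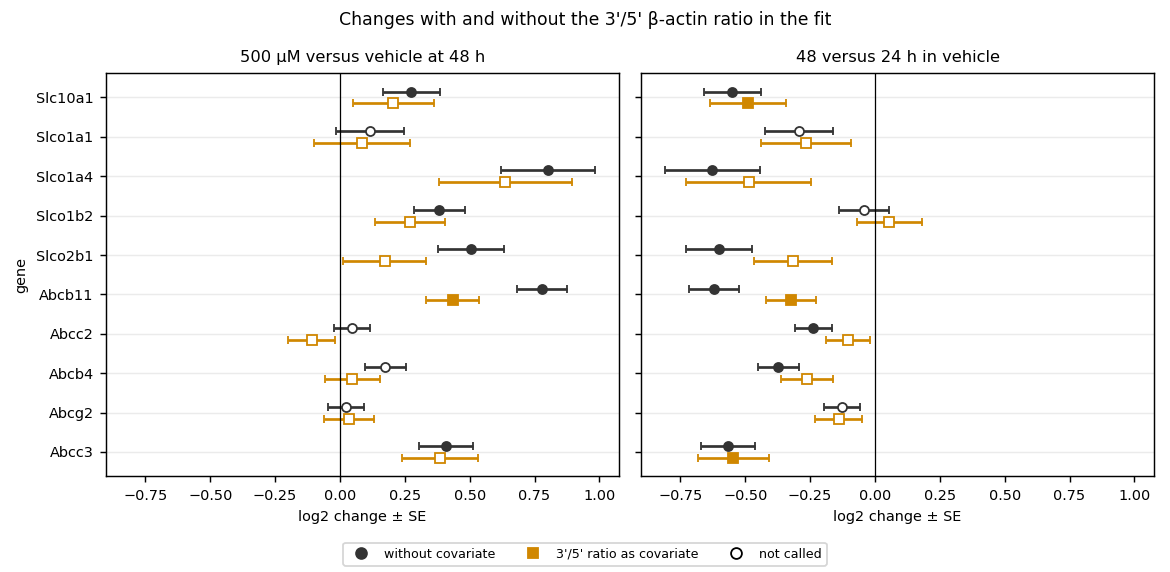
Log2 change ± SE of the 10 carriers with (orange squares) and without (black circles) the β-actin ratio as a covariate, for 500 µM versus vehicle at 48 h and for 48 versus 24 h in vehicle; filled symbols have an adjusted p under 0.05. With the covariate 1 carrier (Abcb11) is called in the first panel and 3 (Slc10a1, Abcb11 and Abcc3) in the second.

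Set against 500 µM instead of vehicle, the 5000 µM wells had all 5 uptake carriers lower at both times. At 48 h all 5 of the 500 µM arrays lay above the gap in the β-actin ratio. All 5 of the 5000 µM arrays lay below it, so dose and ratio cannot be told apart there. At 24 h 7 of 10 carriers were called lower and 1 higher (14.3% and 16.8% of all genes), and at 48 h again 7 lower and 1 higher (28.2% and 19.4%). At 24 h the changes of the uptake genes ran from -1.42 for Slco1a4 to -0.44 for Slco1a1, with -1.21 for Slc10a1, -1.16 for Slco2b1 and -0.94 for Slco1b2. At 48 h Slco1a4 (-1.33 ± 0.18, adjusted p = 5.88e-07), Slco2b1 (-1.25 ± 0.13, adjusted p = 2.8e-09) and Slco1a1 (-0.86 ± 0.13, adjusted p = 3.03e-06) were well apart from 500 µM. Slc10a1 (-0.28 ± 0.11, adjusted p = 0.0363) and Slco1b2 (-0.23 ± 0.10, adjusted p = 0.0476) were near the threshold, and both calls were lost with the ratio as a covariate (-0.21 and -0.12). The call of Slc10a1 was also lost without replicate 3 or 4 of 500 µM or replicate 2, 3 or 5 of 5000 µM (-0.29 to -0.21), and that of Slco1b2 without any array other than replicate 1 of 500 µM or replicate 5 of 5000 µM (-0.24 to -0.20). The second probe set of Slco2b1 was not called at 24 h (-0.18 ± 0.13, adjusted p = 0.492) or at 48 h (-0.11 ± 0.13, adjusted p = 0.663). That of Slco1a4 was called lower at both times (-0.99 ± 0.17 and -0.51 ± 0.17), and that of Slco1b2 at 24 h (-0.79 ± 0.17) but not at 48 h (-0.07 ± 0.17, adjusted p = 0.851). Summed Kupffer and leukocyte markers were lower at 5000 than at 500 µM at 24 h (19641 to 22540 against 27295 to 31641). The same held at 48 h (20835 to 22931 against 23445 to 25770). Of the 3 tested, 1 was called lower at each time, and changes ran from -0.67 to 0.21 and from -0.28 to 0.18. The cholangiocyte sum was higher at 48 h (12465 to 13703 against 11804 to 12384). Of its 2 tested markers, Epcam rose (mean 10896 to 12186) and Ggt1 fell (851 to 569), and both were called. The part of these cells was not tested.

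Among the pumps in the same contrasts, Abcb4 was higher at 5000 than at 500 µM at 24 h (0.56 ± 0.08, adjusted p = 1.37e-06) and at 48 h (0.47 ± 0.08, adjusted p = 1.18e-05), with all arrays above at both times (10.2% and 12.9% of all genes). Abcb11 was lower at 24 h (-0.73 ± 0.10, adjusted p = 4.21e-07) and at 48 h (-0.58 ± 0.10, adjusted p = 9.17e-06), and the latter moved to -0.22 with the ratio as a covariate (adjusted p = 0.145). Abcc3 was lower by 0.48 at 24 h and 0.76 at 48 h on the log2 scale (adjusted p = 0.000539 and adjusted p = 5.0e-07). Abcc2 gave 0.15 and -0.06, and Abcg2 0.11 and 0.06, none of them called. With the covariate 5 of the carriers were called at 48 h. These contrasts share the 500 µM or 5000 µM arrays with those against vehicle, so they are not separate evidence.

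Carrier signals in vehicle wells were lower at 48 h, where the β-actin ratio was lower too. In vehicle wells 7 of 10 carriers were called lower at 48 than at 24 h and 0 higher, against 19% and 13.4% of all genes. Abcb11 went from 27812 ± 1029.5 (SD, n = 5) to 18083 ± 694, with no overlap of arrays (13.5% of all genes lay all below), for a change of -0.62 ± 0.10 (adjusted p = 1.8e-05). Falls of like size were seen for Slco1a4 (-0.63 ± 0.18, adjusted p = 0.009), Slco2b1 (-0.60 ± 0.13, adjusted p = 0.000655), Abcc3 (-0.57 ± 0.10, adjusted p = 0.000143) and Slc10a1 (-0.55 ± 0.11, adjusted p = 0.000414). The second probe sets gave -0.20 ± 0.17 for Slco1a4 (adjusted p = 0.534) and -0.11 ± 0.13 for Slco2b1 (adjusted p = 0.699) and were not called. Abcb4 (-0.37 ± 0.08, adjusted p = 0.00065) and Abcc2 (-0.24 ± 0.07, adjusted p = 0.0101) fell less. Slco1b2 (-0.04 ± 0.10, 95% interval -0.24 to 0.16), Slco1a1 (-0.29 ± 0.13, -0.56 to -0.03) and Abcg2 (-0.13 ± 0.07, -0.27 to 0.01) were not called. The β-actin ratio was 1.49 to 1.99 in the 24 h vehicle wells and 1.09 to 1.34 in the 48 h vehicle wells. These ranges did not overlap, so time and ratio cannot be told apart within this comparison. With the ratio as a covariate 3 carriers were called, Slc10a1 (-0.49, adjusted p = 0.0443), Abcb11 (-0.32, adjusted p = 0.0435) and Abcc3 (-0.55, adjusted p = 0.0156). Summed cholangiocyte markers, of which 6 of 8 were named, were higher at 48 h (14224 to 15588) than at 24 h (9941 to 10306), and their part was not tested. Epcam made up most of this sum (mean 9114 at 24 h and 13446 at 48 h). The 2 markers tested, Epcam and Ggt1, were both called higher.

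For 500 µM, too, the change against vehicle differed between times. Its 48 h part is the comparison in which dose and β-actin ratio cannot be told apart. For 6 of 10 carriers the 48 h change was called above the 24 h change, and for 0 below it, against 22.1% and 14.5% of all genes. Abcb11 differed by 0.90 ± 0.13 (adjusted p = 3.15e-05), Abcc3 by 0.81 ± 0.15 (adjusted p = 0.000153), Slco1a4 by 0.80 ± 0.26 (adjusted p = 0.0156) and Slco2b1 by 0.58 ± 0.18 (adjusted p = 0.0121). Abcb4 (0.47 ± 0.11, adjusted p = 0.00169) and Abcc2 (0.31 ± 0.10, adjusted p = 0.0149) showed smaller differences. The other 4 were not called, with 0.10 ± 0.16 for Slc10a1 (95% interval -0.22 to 0.42), 0.28 ± 0.18 for Slco1a1 (-0.10 to 0.66), 0.28 ± 0.14 for Slco1b2 (-0.00 to 0.56) and 0.03 ± 0.10 for Abcg2 (-0.17 to 0.23). The second probe sets of Slco1a4 (0.19 ± 0.24, adjusted p = 0.718) and Slco2b1 (0.05 ± 0.18, adjusted p = 0.921) were not called, so both calls rest on 1 of 2 probe sets. With the β-actin ratio as a covariate none of the 10 was called in limma, and 3 of all genes tested were.

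Ordered by mean signal over the 6 groups, Abcb11 had the clearest steps. It was highest at 500 µM and 48 h, then in 24 h vehicle, at 500 µM and 24 h, at 5000 µM and 48 h, in 48 h vehicle, and lowest at 5000 µM and 24 h. In 3 of the 5 steps between neighbours the arrays did not overlap. Slco1a4 had the widest range of group means, 1.59 on the log2 scale, but all 5 of its steps overlapped. Slco2b1 (range 1.35) and Abcc3 (0.92) each had 1 step without overlap, from 48 h vehicle down to 5000 µM at 24 h, with 5000 µM at 48 h next and lowest. Slc10a1 (1.21) and Slco1b2 (1.18) each had 1 as well, down to 5000 µM at 24 h, which had the lowest mean. For Slco1b2 the arrays of that group lay below those of every other group. For Slc10a1 its highest array (5226) was above the lowest array of 48 h vehicle (4970.0). Abcb4 (0.65) was highest in the 5000 µM groups, and its separate step lay between 24 h vehicle and 500 µM at 48 h. Slco1a1 (1.04) had the lowest mean at 5000 µM and 48 h, with no separate step. The flattest were Abcc2 (0.26) and Abcg2 (0.23), neither with a separate step.

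By a fixed rule, the genes most like the uptake and the efflux carrier of widest range were sought among the other 8530 tested genes, as the smallest root-mean-square difference of the 6 centred group means of log2 signal. For Slco1a4 they were Ece1, the endothelin-converting enzyme (0.14), Tkfc, the triokinase of fructose metabolism (0.14), and its fellow uptake carrier Slco2b1 (0.15). The search used the brightest probe sets, and the second probe set of Slco2b1 had group means of only 1070 to 1210. Ece1 had mean signals of 6458 in 24 h vehicle, 2366 at 5000 µM and 24 h, and 6834 at 500 µM and 48 h. For Abcb11 they were Ganab, a glucosidase subunit of the endoplasmic reticulum (0.076), Gcgr, the glucagon receptor (0.082), and Scaf8, an RNA polymerase II binding protein (0.10). Ganab had mean signals of 2858, 1773 and 3220 in the same 3 groups.

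For the genes of the lists below, changes are given without the β-actin ratio in the fit. At 500 µM and 48 h dose and ratio cannot be told apart for them either. Further carriers of the hepatocyte did not all follow the members. Of 20 other uptake carriers on a list drawn up beside them, 18 were on the array and 14 were tested, with 5 lower and 2 higher at 5000 µM and 24 h and a median of -0.20. Slc23a1, the vitamin C carrier, fell by 1.50 ± 0.13 on the log2 scale, Slc26a1, a sulfate exchanger, by 0.91 ± 0.11, and the organic anion carrier Slc22a8 by 0.86 ± 0.10. Slc22a5, the carnitine carrier, rose by 0.66 ± 0.06. At 48 h and 5000 µM 4 were lower and 3 higher. Slc22a5 was up by 1.03 ± 0.06 and Slc16a10, an aromatic amino acid carrier, by 0.62 ± 0.12, while Slc23a1 (-0.96 ± 0.13) and the taurine carrier Slc6a6 (-0.94 ± 0.16) fell. At 500 µM the list had 1 higher and 0 lower at 24 h (Slc22a5, 0.23 ± 0.06), and 7 higher and 0 lower at 48 h, led by Slc26a1 (0.64 ± 0.11), Slc13a3, a dicarboxylate carrier (0.57 ± 0.18), Slc22a5 (0.49 ± 0.06) and Slc27a2, a fatty acid carrier (0.35 ± 0.06).

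Of 18 other efflux carriers and flippases, 16 were on the array and 12 were tested. At 5000 µM 4 were higher and 2 lower at 24 h, and 3 higher and 1 lower at 48 h. Abcb1a, a P-glycoprotein, fell by 0.51 ± 0.17 at 24 h and 0.99 ± 0.17 at 48 h, and its other probe set fell too. At 24 h the largest rises were those of Abcc5, a pump of cyclic nucleotides (0.57 ± 0.15), Tmem30a, a flippase subunit (0.56 ± 0.06), and Abcg5, a sterol pump (0.49 ± 0.14). At 48 h they were those of Abcg5 (0.77 ± 0.14), the cholesterol pump Abcg1 (0.69 ± 0.13) and Tmem30a (0.45 ± 0.06). At 500 µM 2 were higher and 0 lower at 24 h, Abcg5 (0.57 ± 0.14) and Abcg1 (0.55 ± 0.13). At 48 h 6 were higher and 1 lower (Tmem30a, -0.15 ± 0.06), and the largest rises were those of Abcg1 (0.84 ± 0.13), Atp8b1, a canalicular flippase (0.41 ± 0.09), Abcc5 (0.40 ± 0.15) and Abcg5 (0.40 ± 0.14). The other probe sets of Abcg1, Abcc5 and Atp8b1 were dim and not called.

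Receptors and factors that act on carrier genes numbered 26, of which 24 were on the array and 16 tested. At 5000 µM and 24 h 3 were lower and 1 higher. Nr1h3, the oxysterol receptor LXR alpha, fell by 0.99 ± 0.08, Nr1i3, the receptor CAR, by 0.62 ± 0.09 and Foxa1 by 0.62 ± 0.19, and Nr1i2, the receptor PXR, rose by 0.22 ± 0.06. At 48 h 5 were lower and 2 higher, with Nr1h3 at -0.63 ± 0.08, Foxa1 at -0.52 ± 0.19, Nr1i3 at -0.43 ± 0.09 and Foxa3 at -0.42 ± 0.12. Singled out after its values were seen, Nr1h4, the bile acid receptor FXR, was called at 500 µM and 48 h (0.21 ± 0.08, adjusted p = 0.0405) and not at 500 µM and 24 h (0.18 ± 0.08), 5000 µM and 24 h (-0.03 ± 0.08) or 5000 µM and 48 h (0.10 ± 0.08). At 500 µM 1 was higher at 24 h (Nr1i2, 0.24 ± 0.06) and 5 were higher at 48 h, with 0 lower at either time. In the comparison of 500 µM with vehicle at 48 h, where dose and β-actin ratio cannot be told apart, Hnf4a was up by 0.72 ± 0.10. This master factor of hepatocyte genes had 0.59 from a second probe set and -0.10, not called, from another. Nr5a2, the receptor LRH-1 (0.38 ± 0.09), Cebpb (0.27 ± 0.06) and Cebpa (0.22 ± 0.08) came next. The other probe sets of Nr5a2 gave 0.23 and 0.10, neither called. Those of Cebpa gave 0.49 and 0.28, both called, and 0.21 and 0.07, not called.

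Scaffold, anchor and polarity genes, which hold carriers at their membrane, numbered 30, with 28 on the array and 26 tested. At 5000 µM and 24 h 12 were lower and 3 higher, with a median of -0.17. Cldn2, a pore-forming claudin, fell by 0.95 ± 0.08, Cdh1, or E-cadherin, by 0.83 ± 0.08, Rab11fip5, a recycling endosome protein, by 0.74 ± 0.14 and Nherf2, a PDZ scaffold, by 0.56 ± 0.16. At 48 h 8 were lower and 4 higher, with Cldn2 at -0.82 ± 0.08, Rab11fip5 at -0.76 ± 0.14, Ezr, or ezrin, at -0.71 ± 0.08 and Msn, or moesin, at -0.57 ± 0.19 (-0.04 from its other probe set). At 500 µM 2 were lower (Rab11fip5, -0.75 ± 0.14, and Cdh1, -0.36 ± 0.08) and 1 higher (Gjb2, 0.29 ± 0.06) at 24 h, and at 48 h 8 were higher and 3 lower. The largest rises there were Cgn, or cingulin (0.60 ± 0.14), Nherf2 (0.53 ± 0.16), Rdx, or radixin (0.50 ± 0.10), and Myo5b, a motor of recycling endosomes (0.43 ± 0.11). The probe sets of Rdx disagreed, with -0.94 called in 1 other probe set, and the second probe set of Nherf2 gave 0.02. The shares of all genes tested that were called in these comparisons are those given above for the members.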

How the data were processed

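Each of the 30 wells gave 1 Affymetrix Rat Genome 230 2.0 array. Per the submitters' processing notes, the authors computed the deposited intensity values with MAS5, with no version given there. The values are linear signals on 31099 probe sets, and their trimmed means over probe sets (2% trimmed) lay between 1500.55 and 1500.66 on every array, so that no further scaling was applied. No 2 arrays were identical. The number of arrays limits the precision, and 57 control probe sets were left out.

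Probe sets were named from the platform annotation, updated through Entrez identifiers: 20832 had 1 symbol, 436 had several and were not used, and 9780 had none listed. A gene was read from its brightest probe set, and the brightest 60% of the 14217 named genes (8531) were tested on log2 signals with limma 3.58.1 in R 4.3.3, as 6 group means over all arrays with an intensity trend (24 residual degrees of freedom) and Benjamini-Hochberg adjustment over all genes tested. The script was first tested on simulated data.

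The 10 carriers, the further lists and the marker lists were chosen with earlier results of these data known, and the motifs after the promoter sequences and the results had been seen. The text names all 10 carriers in every comparison. It names a gene of another list where it was called in a comparison against vehicle, at most 4 per list and comparison by size, and it names the 3 genes most like the uptake and the efflux carrier of widest range. The alternatives were median centring, quantile normalization, the mean of all probe sets, the brightest 40% or all genes tested, log2(signal + 100), eBayes without a trend, the 3'/5' β-actin ratio as a covariate, blocks of 6 consecutive serial numbers from the titles, only the compared groups in the fit, and each array left out. After the data were seen, the gap in the 3'/5' ratio was added as a block and as a split. Promoters came from a RefSeq table (GRCr8) and were aligned with Biopython 1.88.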

Additional observations from a re-analysis of the deposited data

Results flagged for a closer look

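Among the 60 sets of 5 arrays (10 carriers in 6 groups), 3 held an array far from the others by Dixon's criterion at the 95% level, where chance gives about 1 in 20. The highest Slc10a1 signal at 500 µM and 48 h was 9566, and the next was 7679. The highest Abcc3 signal in 24 h vehicle was 10297, and the next was 9361. In 48 h vehicle the highest Abcc3 signal was 7631, and the next was 6204.

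The change at a dose was called different between 24 and 48 h in 12 of the 20 tests of that difference (limma, Benjamini-Hochberg adjusted). Of all genes tested, 22.1% were called above 0 and 14.5% below 0 for 500 µM, and 7.74% and 8.66% for 5000 µM. For 500 µM the 48 h effect minus the 24 h effect was 0.80 for Slco1a4, 0.58 for Slco2b1, 0.90 for Abcb11, 0.31 for Abcc2, 0.47 for Abcb4 and 0.81 for Abcc3 on the log2 scale. For 5000 µM it was 1.03 for Slc10a1, 0.89 for Slco1a4, 0.99 for Slco1b2, 1.05 for Abcb11, 0.38 for Abcb4 and 0.53 for Abcc3. Both differences use the same vehicle arrays, so a shift in vehicle between the times enters both. For 500 µM the 3'/5' ratio also differed between the times in the opposite direction in dosed and vehicle wells, and its part was not tested beyond the covariate and the block. With the ratio as a covariate none of the calls for 500 µM held, and for 5000 µM those of Slco1a4 and Abcb4 were lost. The second probe sets of Slco1a4, Slco1b2 and Slco2b1 were not called in any of these tests.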

How the results depend on the processing

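Of 1071 values of single carriers under other settings, without those that left out an array, 987 kept their direction and side of the threshold, 71 lost the call, 13 gained it and 0 reversed. A change of sign in a value called in neither setting was not counted as a reversal. The split and block by the gap in the 3'/5' ratio were chosen after seeing the data. The cause of lost calls was not tested. The titles carry serial numbers, which run through the 6 groups in order, but no replicate numbers and no word that wells are paired. With each 6 consecutive serial numbers as a block, counts of called genes rose from 244 to 322 at 500 µM and 24 h and by less than 1.5 times in the other comparisons. Among the carriers this ended 1 call (Slco1b2, 5000 against 500 µM at 48 h, adjusted p = 0.0542 in limma) and added 1 (Slco2b1, difference between times at 5000 µM, adjusted p = 0.0435). Proteins and donors are not analysed here. Signal over background limits Slco1a1, which lay near the limit for testing and was left out among the brightest 40% of genes.

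At 500 µM and 24 h, 3 carriers and 244 genes were called. Median centring gave 0 and 51, the covariate gave 1 carrier, only the compared groups gave 1 and 100, the gap as a block gave 447 genes, arrays below the gap gave 0 carriers and arrays above it 0 and 31. At 5000 µM and 24 h, 3252 genes were called, and 563 above the gap. At 500 µM and 48 h, 6 carriers and 3632 genes became 1 and 339 with the covariate and 1 and 484 with the gap as a block. For 5000 against 500 µM, 8 carriers and 2659 genes at 24 h became 5 and 363 above the gap, and 8 and 4064 at 48 h became 5 and 1782 with the covariate, with 2021 genes with the gap as a block. For time in vehicle, 7 carriers and 2770 genes became 3 and 440 with the covariate, with 1190 genes with the gap as a block and 1266 below the gap. For the difference between times at 500 µM, 6 carriers and 3126 genes became 0 and 3 with the covariate and 2 and 682 with the gap as a block. At 5000 µM, 1399 genes became 615 with median centring and 821 with the covariate. Counts under a split rest on fewer arrays, and above the gap the 5000 µM group at 24 h has 1 array, so a call lost there says nothing about the ratio.

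With each array left out, 500 µM at 24 h gave 0 to 3 carriers and 116 to 290 genes, the lowest 4 counts of genes being 116 and 151 without replicate 5 or 4 of 500 µM, and 155 and 156 without replicate 1 or 2 of vehicle. At 5000 µM and 24 h it gave 8 to 9 and 2904 to 3379. At 48 h 500 µM gave 5 to 7 and 3069 to 3509, and 5000 µM gave 4 to 5 and 2500 to 2608. The contrasts of 5000 with 500 µM gave 8 and 2392 to 2626 at 24 h, and 6 to 8 and 3613 to 3999 at 48 h. Time in vehicle gave 7 and 2285 to 2658. The differences between times gave 6 and 2642 to 3226 for 500 µM, and 6 to 7 and 1105 to 1725 for 5000 µM.

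Median centring also moved the split of genes called higher and lower. It went from 141 and 103 to 43 and 8 at 500 µM and 24 h, from 1583 and 1669 to 809 and 1745 at 5000 µM and 24 h, and from 2044 and 1588 to 2324 and 432 at 500 µM and 48 h. For 5000 against 500 µM it went from 1437 and 1222 to 592 and 1224 at 24 h and from 1657 and 2407 to 760 and 2708 at 48 h. In vehicle over time it went from 1145 and 1625 to 284 and 1746. For the differences between times it went from 1886 and 1240 to 1831 and 273 at 500 µM and from 660 and 739 to 441 and 174 at 5000 µM.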
